A study of Mus musculus with 24 samples.

Results

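The Wnt pathway was followed through 10 of its genes across 24 bulk RNA sequencing libraries of the mouse inner ear: the secreted ligands Rspo1, Rspo2 and Rspo3, their receptors Lgr4, Lgr5 and Lgr6, the feedback inhibitors Axin2 and Znrf3, the transcription factor gene Lef1 and the proto-oncogene Myc. They were chosen by name, with earlier results of these data known, as were the pathway and marker lists used below. Each of the 10 had a row among the 25190 genes of the organoid count table and among the 18440 genes of the inner ear count table. The organoids came from cochlear epithelium of mice at postnatal day 1 to 2 and formed 4 groups of 3 libraries: RBM25 knockdown with TNF, RBM25 knockdown, TNF, and control. RBM25 binds RNA and acts in splicing, its knockdown was made with a lentivirus, and TNF is an inflammatory cytokine (tumour necrosis factor alpha). The sample titles call the depleted organoids RBM25 KO and the protocol calls them knocked down, and the protocol's word is used here. The genotype of all 12 organoid samples is given as wild type. All 4 groups had been expanded for 8 to 10 days with EGF, bFGF, IGF and 3.5 µM CHIR99021, then kept for 7 to 8 days with 3 µM CHIR99021 and 5 µM LY411575, a gamma-secretase inhibitor, and then for 9 to 10 days with bFGF and 10 ng/mL EGF. CHIR99021 inhibits GSK3 and thereby activates Wnt signalling, so controls and treated organoids alike had been grown with a Wnt agonist. The sources used here do not give the dose and duration of TNF or the control vector. The second experiment took soft tissue of the inner ear, freed of bone, from untreated males of the C57BL6/J strain at the ages of 3, 11 and 20 months, with n = 4 mice at each. The titles of these samples read Cochlea, and the term inner ear is used here.

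Wnt ligands bind Frizzled receptors with the co-receptors LRP5 and LRP6, which stops the destruction complex from degrading beta-catenin, and beta-catenin then acts with TCF and LEF factors on target genes. ZNRF3 and its relative RNF43 are ubiquitin ligases that remove Frizzled from the cell surface, and an R-spondin bound to an LGR receptor removes them in turn, which raises the response to Wnt. In the cochlea Lgr5 marks a subset of supporting cells that can act as progenitors in the newborn organ, and Axin2 is a common readout of the pathway.

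The organoid libraries held 33802411 to 37048422 counts and the inner ear libraries 30599012 to 38451292. Levels are given in CPM, read counts scaled to a common library size by TMM, or in FPKM, the authors' value per gene length, which alone allows levels of different genes to be compared. A gene is said to have risen or fallen where edgeR's quasi-likelihood test, two-sided and adjusted over all genes tested, gave a p under 0.05. All 10 genes passed the filter on low counts in both tables, Rspo1 and Rspo3 in the organoids only through the groups in which they were present. The biological coefficient of variation was 8.04% among organoid libraries and 19.8% among inner ear libraries. No source states that the 3 organoid libraries of a group came from separate cultures, so its p-values tell only how far those libraries scatter, and that scatter may be technical. Rbm25 itself stood at 94.6 ± 2.14 CPM in knockdown organoids and 145 ± 2.93 CPM in control organoids (SD, n = 3; fold 0.654, adjusted p = 1.01e-07). Tnf transcript was at 0 counts in every library without added TNF and summed to 207 counts in knockdown organoids with TNF and 132 in TNF organoids. The 12 listed NF-kB target genes summed to 1405 to 1529 CPM in the 6 libraries with TNF and 95.4 to 116 CPM in the 6 without.

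The organoid libraries carried supporting cell and prosensory transcripts, at a summed 5912 to 6222 CPM over 15 genes in knockdown organoids with TNF, 8848 to 9053 in knockdown organoids, 7119 to 7484 in TNF organoids and 10734 to 11106 in control organoids. With TNF 5 of the 14 tested rose and 5 fell in knockdown organoids, and 4 rose and 4 fell in the others (medians 0.09 and -0.01). With the knockdown 2 rose and 7 fell, both with TNF and without (medians -0.30 and -0.37). Skeletal muscle markers summed to no more than 1.85 CPM in any organoid library. Macrophage markers, of which 6 are in the table, summed to 9.57 to 11.6 CPM in knockdown organoids with TNF, 1 to 1.43 in knockdown organoids, 2.56 to 3.67 in TNF organoids and 1.06 to 1.59 in control organoids. Of the 3 tested, Aif1 rose with TNF in both backgrounds and Mpeg1 in knockdown organoids, while Ptprc, a general marker of blood cells, was at 0 counts in the first 3 of these groups. Aif1 and Mpeg1 were at 0 counts in the control libraries, and their calls rest on the groups in which they were present. The part of the macrophage markers in the Rspo1 values was not tested. Hair cell markers, 12 genes, summed to 449 to 562 CPM in knockdown organoids with TNF, 600 to 854 in knockdown organoids, 321 to 369 in TNF organoids and 379 to 395 in control organoids. With the knockdown 9 of the 11 tested rose when TNF was present and 10 of 11 when it was not (medians 1.05 and 1.22), and their part in the knockdown values below was not tested. Mesenchymal markers, 12 genes, summed to 686 to 1000 CPM in knockdown organoids with TNF, 897 to 1078 in knockdown organoids, 1096 to 1429 in TNF organoids and 1542 to 1577 in control organoids. With the knockdown 3 of the 11 tested rose and 3 fell when TNF was present, and 3 rose and 4 fell when it was not. Their medians, 0.72 and 1.15, were positive although the sums were lower, so the sums do not describe the typical marker. In bulk samples fewer cells of a type and less RNA per cell cannot be told apart.

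TNF was compared with control to ask how the cytokine changes expression in organoids. Rspo1 rose 605-fold (95% counting interval 236 to 2223) over the 4 reads of the control libraries, Myc rose 7.29-fold, Lef1 1.65-fold and Lgr4 1.37-fold, whereas Rspo2 fell to 0.496 of its control level. Thus 4 of the 10 genes rose and 1 fell, where 47.5% of the 15888 genes tested passed, 23.3% higher and 24.2% lower. The 4 include Rspo1, which passed the count filter only through the groups with TNF. The median log2 fold change was 0.06 over the 10 genes and -0.02 over all genes tested.

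The effect of TNF was also measured in organoids depleted of RBM25. There 7 of the 10 genes rose and 1 fell, against 44.8% of all genes tested that passed, 22.8% higher and 22.0% lower. The genes that rose were Rspo1, Lgr4, Lgr6, Axin2, Znrf3, Lef1 and Myc, and Rspo2 fell. Rspo1 is counted here too, although it passed the count filter only through the groups with TNF. The median log2 fold change was 0.25 over the 10 genes and -0.01 over all genes tested.

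The knockdown without TNF lowered Lgr4, Axin2 and Znrf3 and raised Rspo2 and, at a trace level, Rspo3. These 2 higher and 3 lower of 10 stood beside 52.6% of all genes tested that passed, 24.4% higher and 28.2% lower, and the medians were -0.15 over the 10 genes and -0.03 over all genes. With TNF present, the knockdown lowered Lgr4, Lgr5, Axin2 and Myc and raised Rspo1, Rspo3 and Lgr6, so that 3 rose and 4 fell, against 52.3% of all genes tested that passed, 25.4% higher and 26.9% lower. The medians there were -0.02 over the 10 genes and -0.0085 over all genes tested. Both counts of genes that rose include Rspo3, which passed the count filter only through the knockdown groups. The 4 comparisons share libraries, so the values of a gene in them are not independent of each other.

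**Figure D1:**
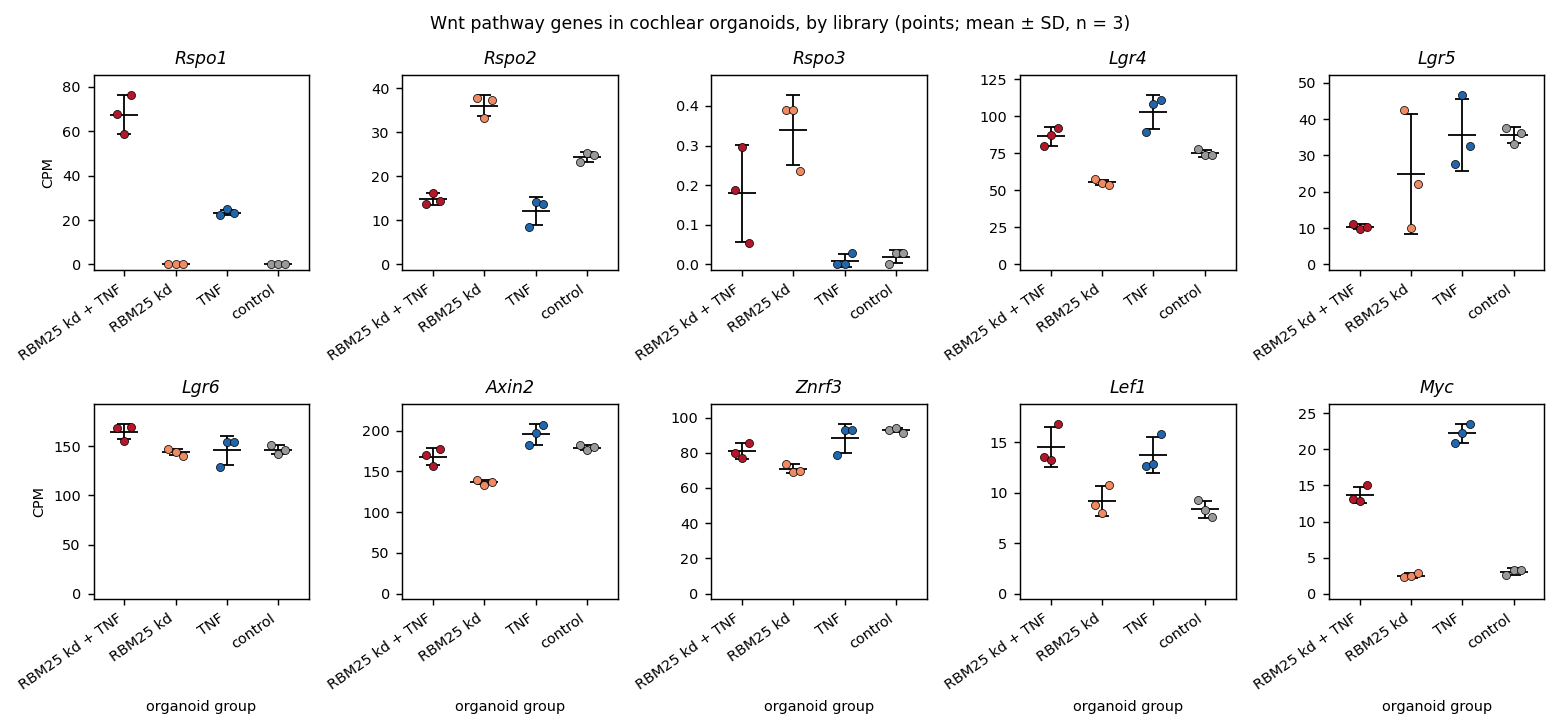
CPM of the 10 genes (y axes from 0, 1 panel per gene) in RBM25 knockdown organoids with TNF, RBM25 knockdown organoids, TNF organoids and control organoids; points are libraries, bars mean ± SD (n = 3). Rspo1 is at 58.6 to 76.4 CPM with knockdown and TNF, at 22.4 to 24.8 CPM with TNF, and at no more than 0.118 CPM without TNF.

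Rspo1 encodes a secreted ligand of the LGR receptors and lies on chromosome 4 (chr4:124986401-125009102, plus strand, GRCm38.p6). It had 2531, 2167 and 2834 counts in knockdown organoids with TNF, against 1, 4 and 3 counts in knockdown organoids. It had 811, 886 and 829 counts in TNF organoids, against 0, 0 and 4 counts in control organoids. All 6 libraries with TNF were far above all 6 without, and no group overlapped across that line. The ratio of summed counts, scaled to library size, was 914 with a 95% counting interval of 464 to 2118 for knockdown with TNF over knockdown. It was 605 with an interval of 236 to 2223 for TNF over control, and both intervals cover counting error only. Without control replicate 3 the control libraries held 0 counts, and Rspo1 was at least 542-fold higher in TNF organoids, taking a floor of 3 counts over the group. On log2(FPKM + 1) values, which understate a change from trace levels, the difference of TNF over control was 3.72. Both changes passed the test (adjusted p = 2.76e-13 in knockdown organoids and 4.19e-12 in the others). Since Rspo1 passed the count filter only through the groups with TNF, these calls follow from where it was present.

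Rspo1 was also higher with the knockdown when TNF was present, at 67.6 ± 8.88 CPM in knockdown organoids with TNF and 23.4 ± 1.23 CPM in TNF organoids (SD, n = 3). The fold was 2.89 (log2 fold change 1.53, SE 0.12, adjusted p = 7.8e-08) and the lowest library with both treatments had 2167 counts, the highest with TNF alone 886. Without TNF the knockdown libraries summed to 8 counts and the control libraries to 4, which is 1.91 times as much (95% counting interval 0.512 to 8.68). That difference did not pass (adjusted p = 0.483). All 4 control counts lay in control replicate 3. Without that library edgeR called the difference (4.48, adjusted p = 0.0257), a value fitted against control libraries at 0 counts. Taking a floor of 3 counts over the group, Rspo1 was then at least 1.71-fold higher in knockdown organoids. The difference between both TNF effects was 0.65 on the log2 scale (SE 1.23, adjusted p = 0.796), an estimate that rests on these 12 counts without TNF. On log2(FPKM + 1) values limma put it at 1.46 (adjusted p = 7.45e-06). There the added 1 outweighs the values without TNF, at means of 0.0409 FPKM in knockdown and 0.0203 in control organoids. The limma value therefore largely repeats the knockdown difference with TNF present, and cannot show whether the TNF effects differ. No exon of Rspo1 overlaps an exon of another GENCODE gene, and the predicted gene Gm12930, whose span reaches into the start of Rspo1, had at most 3 counts in any organoid library. Other neighbours had more counts with TNF: upstream, Gm32371 had 15, 10 and 11 counts in knockdown organoids with TNF, against 0, 1 and 0 in knockdown organoids, and 7, 12 and 19 in TNF organoids, against 0 in each control library. Downstream, Gnl2 had 3582 to 3701 counts in knockdown organoids with TNF, against 2298 to 2359 in knockdown organoids, and 3396 to 3494 in TNF organoids, against 2269 to 2385 in control organoids. Dnali1 had 186 to 214 counts in knockdown organoids with TNF, against 34 to 75 in knockdown organoids, and 54 to 66 in TNF organoids, against 5 to 21 in control organoids. 9930104L06Rik, further upstream, differed less, with 777 to 804 counts in knockdown organoids with TNF, against 608 to 744 in knockdown organoids. It had 894 to 975 counts in TNF organoids, against 830 to 876 in control organoids. These neighbour counts are not scaled to library size, and no test of them is given. Of all genes tested, 22.8% were higher with TNF in knockdown organoids and 23.3% in the others. The spans of Gm32371, Gnl2, Dnali1 and 9930104L06Rik do not overlap that of Rspo1.

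The sequences below are the 250 bases upstream of a RefSeq transcript start (GRCm38.p6), for the members with an entry in the table that rose with TNF in both backgrounds. Each is on the plus strand, 5′ to 3′, with CG dinucleotides in capitals. Lef1 has 4 listed starts, and the first is shown. The end of the Rspo1 window lies within the span of the gene, since the listed start is downstream of the gene's first base.
Rspo1, chr4:124986180-124986429: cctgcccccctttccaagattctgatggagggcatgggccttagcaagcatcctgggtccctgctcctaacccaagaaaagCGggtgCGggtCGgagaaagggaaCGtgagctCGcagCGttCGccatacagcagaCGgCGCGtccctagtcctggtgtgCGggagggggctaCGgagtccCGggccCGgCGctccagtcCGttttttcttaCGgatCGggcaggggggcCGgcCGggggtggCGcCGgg
Lgr4, chr2:109917397-109917646: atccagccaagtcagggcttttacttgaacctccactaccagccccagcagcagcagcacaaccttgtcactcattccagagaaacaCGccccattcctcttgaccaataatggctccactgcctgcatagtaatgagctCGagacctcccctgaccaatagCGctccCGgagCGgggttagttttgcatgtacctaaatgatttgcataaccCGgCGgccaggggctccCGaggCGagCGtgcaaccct
Lef1, chr3:131110047-131110296: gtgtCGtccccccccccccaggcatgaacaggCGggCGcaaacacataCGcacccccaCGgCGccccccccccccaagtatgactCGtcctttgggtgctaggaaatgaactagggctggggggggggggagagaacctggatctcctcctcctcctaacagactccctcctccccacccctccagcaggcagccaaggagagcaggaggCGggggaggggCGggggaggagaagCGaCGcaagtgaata

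These windows hold 22 CG dinucleotides for Rspo1, 10 for Lgr4 and 11 for Lef1, against a median of 6 over 32851 such windows. As many or more were found in 14.8% of windows for Rspo1, 37.8% for Lgr4 and 35.6% for Lef1. The TCF/LEF motifs CTTTGAT and CTTTGAA, the AP-1 motif TGANTCA and the NF-kB consensus were searched on both strands. No match was present in the 8 windows listed for the 5 members with an entry (Rspo1, Lgr4, Lgr6, Axin2 and Lef1). Of all windows, 3.21% hold CTTTGAT, 4.46% CTTTGAA, 6.75% TGANTCA and 3.9% the NF-kB consensus. The table has no entry for Lgr5, Rspo2, Rspo3, Znrf3 and Myc.

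Rspo2, the second ligand gene (chr15:43020788-43171594, minus strand), moved the other way with TNF. It stood at 13.7, 16.3 and 14.3 CPM in knockdown organoids with TNF, against 37.7, 33.3 and 37.2 CPM in knockdown organoids. It stood at 8.50, 14.1 and 13.8 CPM in TNF organoids, against 23.2, 25.3 and 24.8 CPM in control organoids. Every library with TNF was below every library without it. The log2 fold change was -1.29 (SE 0.14, adjusted p = 8.33e-06) for knockdown with TNF over knockdown and -1.01 (SE 0.15, adjusted p = 8.32e-05) for TNF over control. The knockdown raised Rspo2 without TNF (log2 fold change 0.56, SE 0.14, adjusted p = 0.00421), with no overlap of the groups. With TNF its difference of 0.29 did not pass (95% interval -0.04 to 0.61, adjusted p = 0.128), and the groups overlapped.

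Rspo3 (chr10:29453106-29535867, minus strand) was present at a trace only. It had 7, 11 and 2 counts in knockdown organoids with TNF and 15, 14 and 8 counts in knockdown organoids. It had 0, 0 and 1 counts in TNF organoids and 0, 1 and 1 counts in control organoids. The 6 knockdown libraries were thus all above the 6 others, but even their highest value was 0.39 CPM. Since Rspo3 passed the count filter only through the knockdown groups, its calls follow from where it was present, and in fits of only the libraries compared it was not tested for either knockdown comparison. The ratio of summed counts was 17.7 (95% counting interval 4.56 to 151, adjusted p = 0.000871) for knockdown over control and 19.4 (3.1 to 803, adjusted p = 0.00498) for knockdown with TNF over TNF. An exon of Rspo3 overlaps one of Gm48159 on the opposite strand, and the libraries were not stranded, so reads there cannot be assigned with certainty. For knockdown with TNF over knockdown the ratio was 0.525 (0.289 to 0.928), which did not pass the test (adjusted p = 0.217), and between TNF and control organoids no fold can be given, with 1 count against 2.

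The receptor genes differed from each other. Lgr4 (chr2:109917647-110014257, plus strand), which encodes the broadly expressed receptor of the family, had 79.6, 87.3 and 92.3 CPM in knockdown organoids with TNF, against 57.3, 54.8 and 53.9 CPM in knockdown organoids. It had 89.3, 108 and 111 CPM in TNF organoids, against 77.8, 73.8 and 73.6 CPM in control organoids. The 3 knockdown libraries without TNF were the lowest of the 12, and the libraries with TNF lay above their counterparts without overlap. TNF raised Lgr4 by a log2 fold change of 0.64 (SE 0.07, adjusted p = 1.23e-06) in knockdown organoids and of 0.45 (SE 0.07, adjusted p = 5.06e-05) in the others. The knockdown lowered it, with a log2 fold change of -0.25 (SE 0.07, adjusted p = 0.00683) with TNF, where the groups overlapped, and of -0.44 (SE 0.07, adjusted p = 6.59e-05) without.

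Lgr5 (chr10:115450314-115587780, minus strand), the supporting cell and progenitor marker, varied most of the 10 genes, relative to its mean, between the knockdown libraries. It had 11.1, 9.71 and 10.4 CPM in knockdown organoids with TNF, against 42.6, 10.0 and 22.2 CPM in knockdown organoids. It had 27.6, 46.7 and 32.6 CPM in TNF organoids, against 37.7, 33.1 and 36.1 CPM in control organoids. The libraries with both treatments were uniformly low, those of the knockdown alone spread from the level of that group to above the controls, and TNF and control libraries overlapped. Lgr5 fell with the knockdown when TNF was present (log2 fold change -1.77, SE 0.46, adjusted p = 0.0112). Its difference for knockdown with TNF over knockdown was -1.27 (95% interval -2.33 to -0.20, adjusted p = 0.0552) and passed without knockdown replicate 2 (-1.64, adjusted p = 0.00347) and with DESeq2 (-1.28, adjusted p = 0.0124), while it was -0.64 (adjusted p = 0.199) without knockdown replicate 1. The knockdown without TNF gave -0.51 (interval -1.50 to 0.48, adjusted p = 0.359), and passed without knockdown replicate 1, the highest library (-1.13, adjusted p = 0.0266). In the 3 knockdown libraries, in the same order, the 12 hair cell markers summed to 854, 600 and 608 CPM and the 15 supporting cell markers to 8880, 9053 and 8848 CPM, and their part in the Lgr5 values was not tested. TNF over control gave -0.0013 with an interval of -0.98 to 0.98, which leaves room for a change in either direction.

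Lgr6 (chr1:134983300-135105374, minus strand), a receptor gene also known from cochlear progenitors and from skin, held a narrow range. It had 169, 156 and 170 CPM in knockdown organoids with TNF, against 147, 145 and 141 CPM in knockdown organoids. It had 129, 154 and 154 CPM in TNF organoids, against 151, 142 and 147 CPM in control organoids. The group with both treatments was above the others, and the other 3 groups overlapped. It rose for knockdown with TNF over knockdown (log2 fold change 0.20, SE 0.06, adjusted p = 0.0121) and over TNF (0.18, SE 0.06, adjusted p = 0.0179). Both calls were lost without replicate 1 of the group with both treatments (0.16, adjusted p = 0.0917, over knockdown; 0.15, adjusted p = 0.0981, over TNF) and without its replicate 3 (0.16, adjusted p = 0.0875; 0.15, adjusted p = 0.0907). The call over TNF was also lost without TNF replicate 1 (0.09, adjusted p = 0.161) and in a fit of only these 6 libraries (0.19, adjusted p = 0.0501).

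Among the feedback inhibitors, Axin2 (chr11:108917828-108950783, plus strand) encodes a scaffold of the destruction complex that the pathway itself induces. It had 170, 157 and 178 CPM in knockdown organoids with TNF, against 140, 134 and 138 CPM in knockdown organoids. It had 182, 198 and 207 CPM in TNF organoids, against 182, 176 and 180 CPM in control organoids. The knockdown libraries without TNF were the lowest, and the lowest TNF library was just above the highest control library. Axin2 fell with the knockdown, with a log2 fold change of -0.22 with TNF (SE 0.05, adjusted p = 0.00199) and of -0.39 without (SE 0.05, adjusted p = 5.88e-06). TNF raised it in knockdown organoids (0.30, SE 0.05, adjusted p = 0.000159). In the others its difference of 0.12 did not pass (SE 0.05, adjusted p = 0.0599), and passed without TNF replicate 1 (0.19, adjusted p = 0.00595), in a fit of only these 6 libraries (0.14, adjusted p = 0.0303), with no count filter (0.15, adjusted p = 0.0267) and on log2(FPKM + 1) values (0.15, adjusted p = 0.037). An exon of Axin2 overlaps one of Gm11670 on the opposite strand.

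Znrf3 (chr11:5276329-5444847, minus strand), the ubiquitin ligase gene, had 80.1, 76.8 and 85.8 CPM in knockdown organoids with TNF, against 73.8, 69.2 and 69.7 CPM in knockdown organoids. It had 78.7, 93.0 and 92.7 CPM in TNF organoids, against 93.0, 94.3 and 91.5 CPM in control organoids. The knockdown libraries without TNF were again the lowest, while TNF and control libraries overlapped. Znrf3 fell with the knockdown (log2 fold change -0.39, SE 0.06, adjusted p = 3.01e-05) and rose for knockdown with TNF over knockdown (0.19, SE 0.06, adjusted p = 0.0169). The rise was lost without replicate 1 or 3 of the group with both treatments (0.18, adjusted p = 0.0671, and 0.13, adjusted p = 0.154) and without knockdown replicate 2 or 3 (0.17, adjusted p = 0.0638, and 0.18, adjusted p = 0.0508). With TNF present the knockdown gave -0.12 (interval -0.25 to 0.0044, adjusted p = 0.0983), and this passed without TNF replicate 1 (-0.21, adjusted p = 0.00445) and without replicate 3 of the group with both treatments (-0.17, adjusted p = 0.0454). Its TNF effect in knockdown organoids minus that in the others was 0.27 on the log2 scale (interval 0.08 to 0.45) and missed the threshold (adjusted p = 0.0509), which it passed without replicate 2 of the group with both treatments (0.28, adjusted p = 0.0465).

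Lef1 (chr3:131110297-131224357, plus strand) encodes a transcription factor that binds beta-catenin and is itself a target of the pathway. It had 13.5, 13.3 and 16.8 CPM in knockdown organoids with TNF, against 8.74, 8.00 and 10.8 CPM in knockdown organoids. It had 12.6, 12.9 and 15.8 CPM in TNF organoids, against 9.23, 8.26 and 7.56 CPM in control organoids. All libraries with TNF were above all libraries without it. The log2 fold change with TNF was 0.66 (SE 0.13, adjusted p = 0.000382) in knockdown organoids and 0.72 (SE 0.13, adjusted p = 0.00018) in the others. The knockdown gave 0.08 with TNF (interval -0.19 to 0.35) and 0.13 without (interval -0.15 to 0.41), neither of which passed. An exon of Lef1 overlaps one of Gm43352 on the opposite strand.

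Myc (chr15:61985341-61990361, plus strand) encodes a growth-promoting transcription factor that answers to many signals besides Wnt. It had 13.1, 12.9 and 15.0 CPM in knockdown organoids with TNF, against 2.26, 2.42 and 2.83 CPM in knockdown organoids. It had 20.9, 22.3 and 23.5 CPM in TNF organoids, against 2.52, 3.32 and 3.30 CPM in control organoids. The groups with TNF stood apart from those without, and with TNF the knockdown libraries were all below the others. TNF raised Myc 5.46-fold in knockdown organoids (log2 fold change 2.45, SE 0.13, adjusted p = 1.64e-11) and 7.29-fold in the others (2.87, SE 0.12, adjusted p = 1.31e-12). With TNF, the knockdown lowered it to 0.616 of the TNF level (log2 fold change -0.70, SE 0.11, adjusted p = 2.54e-05), and without TNF its difference of -0.28 did not pass (adjusted p = 0.0944), though it did without control replicate 1 (-0.41, adjusted p = 0.0252). Listed markers of cycling cells, 8 genes, summed to 26.4 to 27.1 CPM in knockdown organoids with TNF, 23.9 to 29.1 in knockdown organoids, 13.2 to 15.6 in TNF organoids and 7.91 to 10.4 in control organoids, and their part in the Myc values was not tested.

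**Figure D2:**
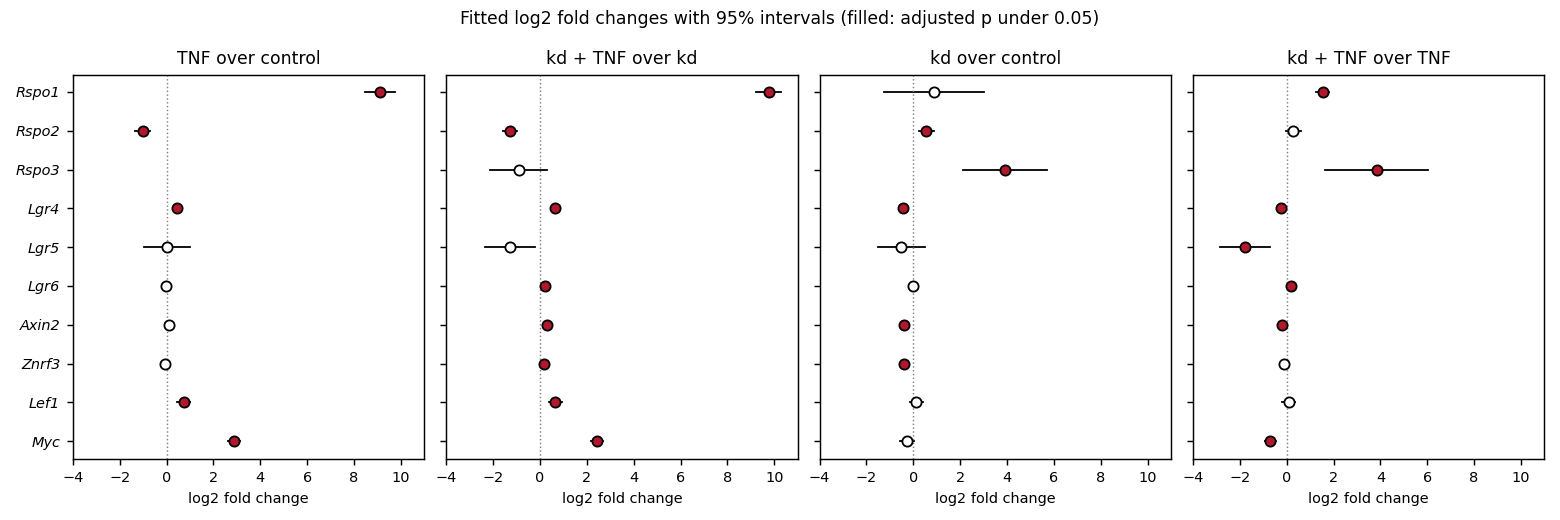
Fitted log2 fold changes (x axis) of the 10 genes with 95% intervals in the 4 organoid comparisons; red points passed the test, white points did not, and Rspo3 is left out for TNF over control because of its 1 and 2 counts. Rspo1 lies at 9.12 and 9.77 for TNF, Myc at 2.87 and 2.45, and Rspo2 at -1.01 and -1.29.

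Whether the TNF effect differed with the knockdown was tested as an interaction. By edgeR, 0 of the 10 genes passed, against 12.3% of all genes tested (7.54% higher and 4.81% lower), and 4 of the 10 (Znrf3, Lgr6, Myc and Axin2) had an unadjusted p under 0.05, against 26.5% of all genes tested. DESeq2 called 0 of the 10 as well, and limma on log2(FPKM + 1) called 2, Rspo1 with 1.46 and Myc with -0.47 (adjusted p = 0.0146). The Rspo1 value there largely repeats the knockdown difference with TNF present, as given above. For Myc the added 1 is near the means without TNF, 1.06 FPKM in knockdown and 1.23 in control organoids. It shrinks the knockdown difference of Myc without TNF more than that with TNF. In edgeR the Myc difference was -0.42 (interval -0.78 to -0.05, adjusted p = 0.134). The Lgr5 difference of -1.26 (interval -2.71 to 0.18) passed without knockdown replicate 2 (-1.64, adjusted p = 0.0475), and the Rspo2 difference of -0.28 without TNF replicate 1 (-0.51, adjusted p = 0.00706). The genes that passed TNF over knockdown but not TNF over control (Lgr6, Axin2 and Znrf3) are therefore not shown to respond differently in both backgrounds.

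Per gene length, Axin2 had the highest level of the 10 in control organoids, at 31.4 ± 0.498 FPKM, followed by Lgr6 at 20.6 ± 0.676 and Lgr4 at 14.2 ± 0.504 FPKM. Znrf3 with 11.8 FPKM, Lgr5 with 7.34, Rspo2 with 2.28, Lef1 with 1.79 and Myc with 1.23 came next, and each of these neighbours was separated from the next in every library. Rspo1 and Rspo3 came last and overlapped at 0 FPKM. In TNF organoids Axin2 still led with 35 ± 2.25 FPKM, Lgr6 and Lgr4 overlapped, and Rspo1, at 12.4 ± 0.583 FPKM, came after them and overlapped Znrf3. In knockdown organoids with TNF Rspo1 was at 37.0 ± 4.75 FPKM and overlapped Axin2 at 31.0 ± 1.89 FPKM, above all others, while Lgr5 at 2.26 ± 0.161 FPKM had moved below Myc and Lef1. In knockdown organoids the order of the first 4 genes was that of the controls, with Znrf3, Lgr5 and Rspo2 overlapping as neighbours.

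Other genes of the pathway were taken from 9 lists, of which 88 genes were tested in the organoids. With TNF, 29 of the 88 rose and 25 fell in knockdown organoids, and 26 rose and 34 fell in the others, with medians of -0.02 and -0.05. Of all genes tested, 22.8% were higher and 22.0% lower in knockdown organoids, and 23.3% higher and 24.2% lower in the others. The counts per list for TNF stand beside these shares. Of 12 Wnt ligand genes tested, 5 rose and 3 fell in knockdown organoids and 5 rose and 4 fell in the others. Wnt4, a ligand needed for kidney development, had 7.53 ± 1.25 CPM in knockdown organoids with TNF and 0.119 ± 0.0693 in knockdown organoids (log2 fold change 5.93). It had 8.90 ± 1.03 CPM in TNF organoids and 0.222 ± 0.1 in control organoids (5.30). The ligand genes that rose in each background thus include Wnt4, which passed the count filter only through the groups with TNF. Its calls follow from where it was present. Wnt10a rose by 3.06 with TNF over control, and Wnt7a and Wnt9a fell in both backgrounds, with a log2 fold change for Wnt9a of -1.01 in knockdown organoids and -1.11 in the others. Both genes needed for Wnt secretion, Wls and Porcn, fell with TNF in both backgrounds, with -0.24 for Wls in knockdown organoids and -0.25 in the others.

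Of the 18 other listed Wnt target genes tested, 10 rose and 3 fell with TNF in knockdown organoids, with a median of 0.36, and 8 rose and 5 fell in the others, with a median of 0.14. Smoc2, a gene of intestinal stem cells, rose by 0.86 in knockdown organoids and 1.22 in the others, and Notum, which encodes an enzyme that inactivates Wnt ligands, rose by 2.50 and 2.17. Sp5, a direct target gene, had 18.5 ± 1.79 CPM in knockdown organoids with TNF and 5.44 ± 1.07 CPM in knockdown organoids (1.76, SE 0.13, adjusted p = 2.45e-09). Ephb2 and Jun fell in both backgrounds. Of 10 secreted inhibitor genes, 3 rose and 3 fell in each background, with Notum and Dkk2 higher and Sfrp1 lower in both.

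With the knockdown, 27 of the 88 genes rose and 32 fell without TNF, and 35 rose and 22 fell with TNF. Of all genes tested, 24.4% were higher and 28.2% lower without TNF, and 25.4% higher and 26.9% lower with it. Smoc2 had 24.6 ± 0.375 CPM in knockdown organoids with TNF and 183 ± 4.5 CPM in TNF organoids (log2 fold change -2.89, SE 0.06, adjusted p = 6.12e-17). It had 13.6 ± 1.05 CPM in knockdown organoids and 78.3 ± 3.16 CPM in control organoids (-2.53, SE 0.06, adjusted p = 3.99e-16). Wnt10a fell with the knockdown (log2 fold change -2.44 with TNF and -3.35 without), while Sostdc1, a secreted inhibitor of Wnt and BMP signalling, rose by 2.71 and 2.87. Of the 18 other target genes, 9 rose and 5 fell with TNF present, and 3 rose and 9 fell without TNF, where Sp5 fell (-1.48, SE 0.13, adjusted p = 1.91e-08). Rnf43, the close relative of Znrf3, fell with the knockdown without TNF (log2 fold change -0.35, adjusted p = 4.99e-05). Of 16 Frizzled and co-receptor genes, 8 rose and 4 fell with TNF present and 9 rose and 5 fell without. The receptor gene Fzd8 rose by 0.83 and 0.71.

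**Figure D3:**
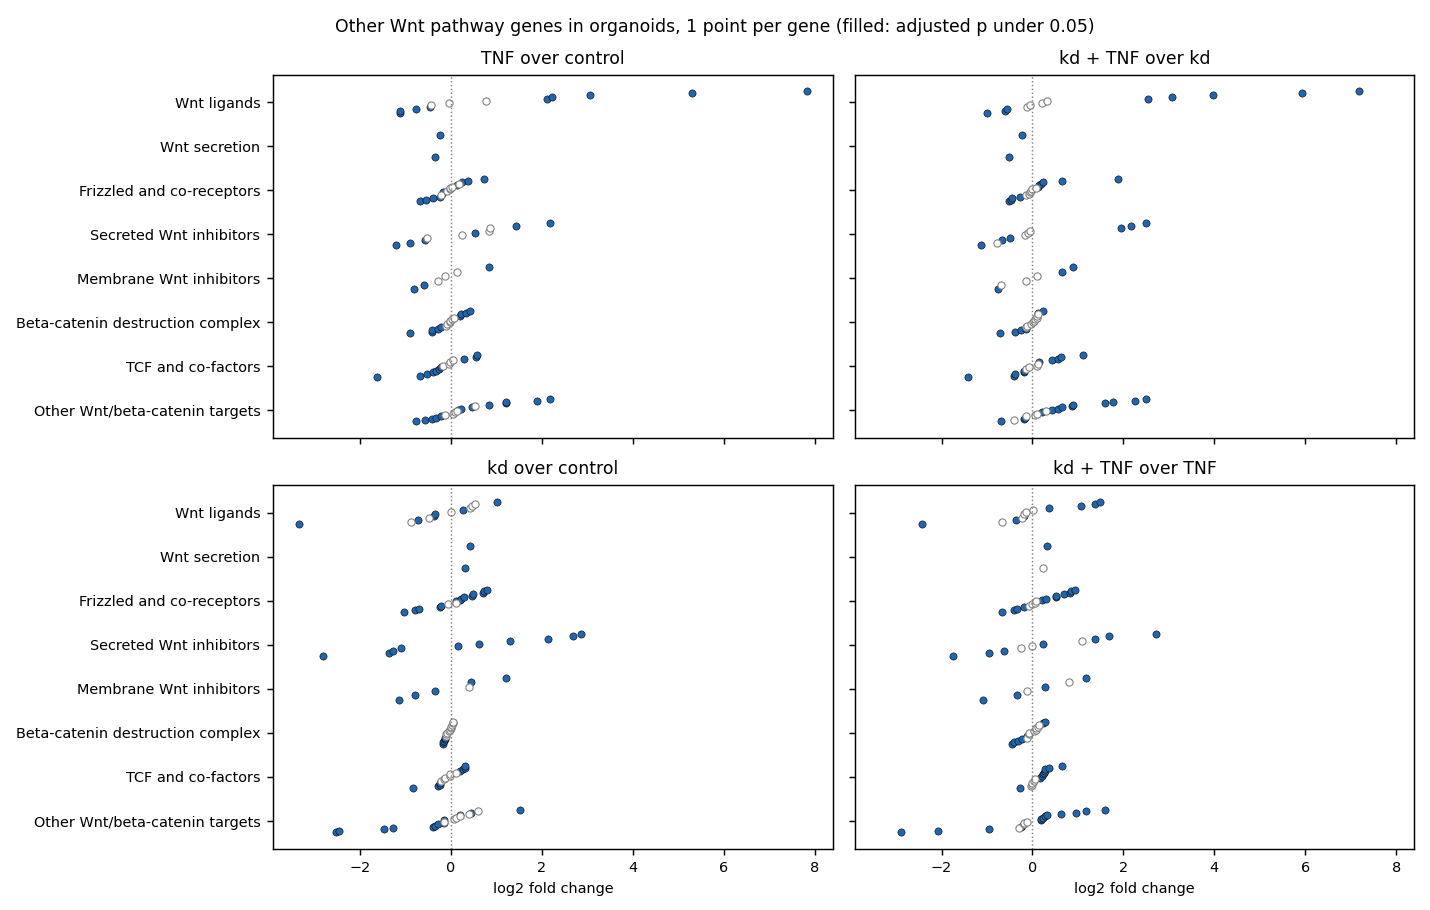
Log2 fold changes (x axis) of the other Wnt pathway genes in the 4 organoid comparisons, by list (rows), 1 point per gene; filled points passed the test and open points did not. The points far to the right in the Wnt ligand row of both upper panels include Wnt4 at 5.30 (TNF over control) and 5.93 (TNF with knockdown over knockdown). Wnt4 passed the count filter only through the groups with TNF.

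Among 10804 genes with a mean of at least 5 CPM, the ones whose log2(CPM + 1) followed Lgr5 most closely over the 12 organoid libraries were Asxl2 (Pearson r = 0.943), Ntng2 (0.922) and Hmcn1 (0.918). For Axin2 they were Prdm16 (0.984), Foxp4 (0.982) and Sun2 (0.981). For Rspo3, at a mean of 0.137 CPM, they were N4bp2 (0.970), Trim36 (0.969) and Cfap44 (0.967). These coefficients describe the 12 libraries, which share their 4 groups, and are the highest of many.

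In inner ear tissue from mice the 10 genes were all present, and none was at 0 in any library. Comparing 20 with 3 months asked what aging changes, and there 2 of the 10 genes rose, Lgr6 and Znrf3, and the other 8 did not pass the test, against 22.7% of the 15525 genes tested that passed, 12.0% higher and 10.7% lower. The median log2 fold change was 0.30 over the 10 genes and 0.01 over all genes tested. Between 20 and 11 months Lgr6 and Znrf3 rose as well, against 15.8% of all genes tested that passed, 7.87% higher and 7.90% lower, with medians of 0.30 and 0.03. Both comparisons use the same 20-month libraries. Between 11 and 3 months edgeR called 0 of the 10, against 1.56% of all genes tested (0.979% higher and 0.580% lower). There 1 of the 10, Rspo3, had an unadjusted p under 0.05, against 18.1% of all genes tested, and DESeq2 called it (-0.67, adjusted p = 0.0343), while limma on log2(FPKM + 1) called 0. Macrophage markers, 9 genes, summed to 125 to 158 CPM at 3 months, 246 to 276 at 11 months and 237 to 432 at 20 months. The 12 NF-kB target genes summed to 139 to 176 CPM at 3 months, 185 to 203 at 11 months and 259 to 381 at 20 months, and the part of these lists in the Lgr6 and Znrf3 values was not tested.

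Of the ligands, Rspo1 stood at 11.5 ± 2.01 CPM at 3 months, 11.0 ± 1.95 at 11 months and 12.0 ± 1.04 at 20 months (SD, n = 4), with overlapping ranges. Its difference of 20 over 3 months was 0.06 on the log2 scale (interval -0.27 to 0.40). Rspo2 had 12.4, 9.40, 23.6 and 13.6 CPM at 3 months, 22.3, 13.5, 14.7 and 17.2 at 11 months and 25.8, 23.3, 21.3 and 18.8 at 20 months. The 20-month mice had the highest mean, but replicate 3 of 3 months and replicate 1 of 11 months lay among them. The difference of 20 over 3 months was 0.59 (interval 0.05 to 1.13, adjusted p = 0.104), and it passed without 3-month replicate 3 (0.91, adjusted p = 0.00584).

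Rspo3 had 38.3, 58.8, 41.3 and 41 CPM at 3 months, 23.9, 23.4, 22.6 and 43.0 at 11 months and 32.9, 34.4, 29.1 and 21.8 at 20 months. All 20-month mice were below all 3-month mice, and of the 11-month mice 3 were below and 1 was among them. The difference of 20 over 3 months was -0.60 (interval -1.09 to -0.11) and did not pass in edgeR (adjusted p = 0.076), whereas DESeq2 called it (-0.61, adjusted p = 0.021), as did a fit of only these 8 mice (adjusted p = 0.042). That of 11 over 3 months was -0.67 (interval -1.16 to -0.17, adjusted p = 0.149), and it passed without 11-month replicate 4 (-0.93, adjusted p = 0.0433). Mesenchymal and fibrocyte markers, 12 genes, summed to 8183 to 10643 CPM at 3 months, 5629 to 8015 at 11 months and 5527 to 8034 at 20 months, and their part in the Rspo3 values was not tested. Of the 12, 1 rose and 2 fell at 20 over 3 months (median log2 fold change -0.03). At 11 over 3 months 0 rose and 1 fell (median -0.51).

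Of the receptors, Lgr6 had the largest fold change with age among the 10 genes. It had 4.63, 5.68, 4.20 and 4.99 CPM at 3 months, 8.60, 6.63, 4.56 and 4.60 at 11 months and 11.1, 14.8, 8.56 and 10.1 at 20 months. All 20-month mice were above all 3-month mice, and only replicate 1 of 11 months reached into the 20-month range. It rose 2.28-fold at 20 over 3 months (log2 fold change 1.19, SE 0.22, adjusted p = 0.00323) and 1.82-fold at 20 over 11 months (0.87, SE 0.22, adjusted p = 0.0229). The call over 11 months was lost without 20-month replicate 1 (0.87, adjusted p = 0.0554) or 2 (0.70, adjusted p = 0.0608) and without 11-month replicate 3 (0.73, adjusted p = 0.0781) or 4 (0.73, adjusted p = 0.0589). The difference of 11 over 3 months was 0.32 (interval -0.16 to 0.81).

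Lgr5 had 38.0, 37.2, 43.4 and 42.3 CPM at 3 months, 39.4, 25.7, 26.4 and 28.6 at 11 months and 60.6, 73.4, 31.3 and 37.9 at 20 months. Replicates 1 and 2 of 20 months were the highest of all 12 mice, and replicates 3 and 4 fell within the range of the younger ones. The listed supporting cell markers, 15 genes, summed in the 4 mice of 20 months to 4695, 5190, 3678 and 4299 CPM, and the 10 markers of brain glia and cerebellum to 895, 205, 1652 and 996 CPM. The brain markers summed to 203 to 600 CPM at 3 months and 1045 to 1293 at 11 months. Skeletal muscle markers, 9 genes, summed to 43.9 to 151 CPM at 3 months, 17.2 to 34.3 at 11 months and 24.1 to 32.5 at 20 months. Neuron markers summed to 6653 to 8879 CPM at 3 months, 7954 to 9129 at 11 months and 4484 to 6996 at 20 months. Of these 8 markers, 0 rose and 5 fell at 20 over 3 months, and 0 rose and 6 fell at 20 over 11. Osteoblast and osteocyte markers summed to 196 to 481, 120 to 135 and 151 to 363 CPM at these ages. Of these 10, 0 rose and 2 fell at 20 over 3 months, and 2 rose and 0 fell at 20 over 11. The part of these lists in the Lgr5 values, or in those of the other genes, was not tested. Lgr5 did not pass at 20 over 3 months (0.34, interval -0.19 to 0.86) or at 20 over 11 months (0.76, interval 0.23 to 1.28, adjusted p = 0.0537). At 20 over 11 months it passed without 20-month replicate 3 (0.93, adjusted p = 0.00899), without 11-month replicate 1 (0.91, adjusted p = 0.0404) and with DESeq2 (0.75, adjusted p = 0.00709). Lgr4 was even, at 56.8 ± 4.21 CPM at 3 months, 58.5 ± 2.15 at 11 months and 62.1 ± 4.27 at 20 months, with a difference of 0.13 at 20 over 3 months (interval -0.02 to 0.28).

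Of the feedback inhibitors, Znrf3 had 14.5, 15.3, 14.4 and 15.6 CPM at 3 months, 15.2, 13.3, 12.7 and 12.0 at 11 months and 18.9, 20.2, 15.7 and 20.5 at 20 months. Every 20-month mouse was above every younger one, replicate 3 by a small margin. It rose 1.26-fold at 20 over 3 months (log2 fold change 0.33, SE 0.10, adjusted p = 0.0355) and 1.41-fold at 20 over 11 months (0.50, SE 0.10, adjusted p = 0.0115). The call over 3 months was lost in 7 of the 8 fits that left out 1 mouse, all but the one without 20-month replicate 3, with adjusted p between 0.0558 and 0.0988, and in a fit of only these 8 mice (0.32, adjusted p = 0.0555). That over 11 months held in all 8. Axin2 stood at 42.2 ± 5.83 CPM at 3 months, 43.9 ± 2.32 at 11 months and 50.9 ± 5.38 at 20 months, with overlap, and its difference of 0.27 at 20 over 3 months did not pass (interval 0.06 to 0.48, adjusted p = 0.0643), though it did without 3-month replicate 2 (0.36, adjusted p = 0.0205) and without 20-month replicate 3 (0.31, adjusted p = 0.049).

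Lef1 stood at 12.9 ± 3.59 CPM at 3 months, 13.4 ± 1.21 at 11 months and 17.8 ± 2.78 at 20 months, and replicate 2 of 3 months, at 18.2 CPM, lay among the 20-month mice. The difference of 0.46 at 20 over 3 months did not pass (interval 0.10 to 0.82, adjusted p = 0.0654) and passed without that mouse (0.67, adjusted p = 0.0065) and with DESeq2 (0.45, adjusted p = 0.0483). Myc was at 5.51 ± 0.876 CPM at 3 months, 5.53 ± 1.16 at 11 months and 5.55 ± 0.876 at 20 months, and its difference at 20 over 3 months was 0.0095 (interval -0.39 to 0.41).

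**Figure D4:**
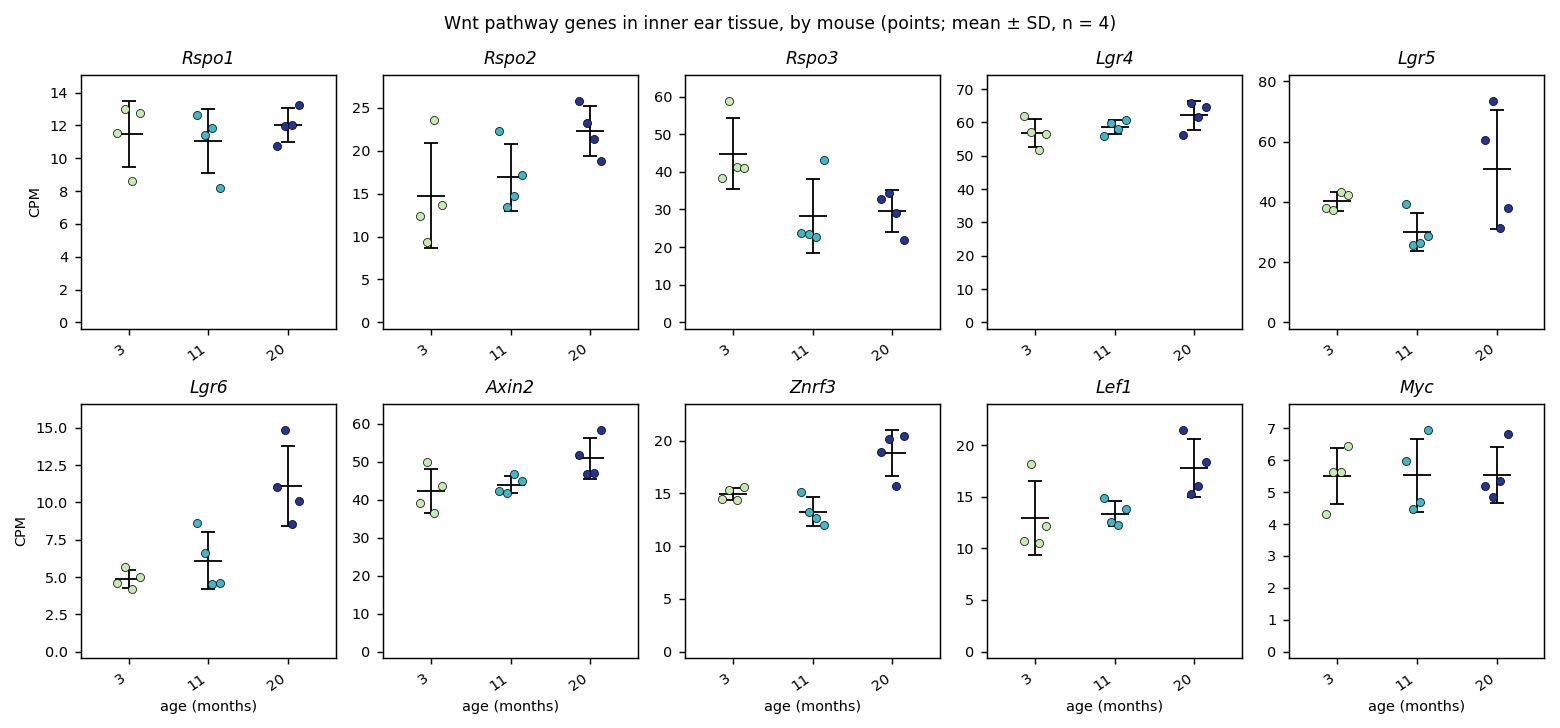
CPM of the 10 genes (y axes from 0, 1 panel per gene) in inner ear tissue by age in months; points are mice, bars mean ± SD (n = 4). Lgr6 is at 8.56 to 14.8 CPM at 20 months and 4.20 to 5.68 CPM at 3 months, and Rspo3 at 21.8 to 34.4 CPM at 20 months and 38.3 to 58.8 CPM at 3 months.

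Per gene length the order in inner ear tissue differed from that in organoids, which are set side by side here although the tables were normalized separately. At 3 months Rspo3 led with 18.5 ± 3.96 FPKM, ahead of Lgr4 with 10.9 ± 0.775 FPKM, while Lgr5, with 8.45 FPKM, and Axin2, with 8.35 FPKM, overlapped. Rspo1 followed with 6.11 FPKM, and Lef1, Myc, Znrf3 and Rspo2 overlapped as neighbours between 2.84 and 1.41 FPKM. Lgr6 had the lowest mean of the 10 at every age, with 0.7 ± 0.0937 FPKM at 3 months, 0.88 ± 0.283 at 11 months and 1.64 ± 0.396 at 20 months. Its range was below that of all others at 3 and 11 months, and at 20 months it overlapped those of Rspo2, Myc and Znrf3. At 20 months Rspo3, Lgr4, Lgr5 and Axin2 overlapped in turn at the top, between 12.5 and 10.3 FPKM.

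Of the 95 other pathway genes tested in the inner ear, 21 rose and 8 fell at 20 over 3 months, with a median of 0.19. Of all genes tested 12.0% were higher and 10.7% lower there, with a median of 0.01, and the counts per list stand beside these shares. In the list of 20 other Wnt targets 8 rose and 2 fell, led by the cyclin gene Ccnd1 with 38.6 ± 5.38 CPM at 20 months and 15.4 ± 2.01 CPM at 3 months (log2 fold change 1.33, SE 0.12, adjusted p = 7.24e-05). Of 13 Wnt ligand genes 4 rose, among them Wnt7b (0.93, adjusted p = 0.00136) and Wnt5a (0.38, adjusted p = 0.00361), and the other 9 did not pass. Of 16 Frizzled and co-receptor genes 4 rose, among them Fzd7 (0.65) and Fzd2 (0.57), and the other 12 did not pass. Wls, which carries Wnt ligands to the cell surface, rose by 0.72 (adjusted p = 0.000579). The secreted inhibitor gene Sfrp1 rose by 0.57, and Sfrp5 (-0.88) and Sostdc1 (-0.43) fell.

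At 20 over 11 months 24 of the 95 pathway genes rose and 3 fell, against 7.87% higher and 7.90% lower of all genes tested. Among them were Ccnd1 at 1.04 and Rnf43 at 0.60 (adjusted p = 0.0152), although the groups overlapped for Rnf43. At 11 over 3 months 0 of the 95 passed in edgeR, against 1.56% of all genes tested, and 30 had an unadjusted p under 0.05, against 18.1%. Over the 12 inner ear libraries the genes most like Lgr5 among 12071 were Sorbs2 (r = 0.951), Tmem221 (0.946) and Mapkapk2 (0.945). Those most like Axin2 were Zbtb21 (0.914), Cthrc1 (0.910) and Serpinh1 (0.902), and those most like Rspo3 were Tssc4 (0.943), Acacb (0.916) and Dpm2 (0.915). These libraries share the 3 ages and differ in their content of other tissues, and the coefficients describe them only.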

How the data were processed

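Read counts per gene were deposited by the authors for 12 organoid libraries and 12 inner ear libraries, together with FPKM values deposited by the authors, normalized to gene length and library size. Per the labels' protocols the libraries were made with an unstranded poly(A) kit, and per the submitters' processing notes Trimmomatic, HISAT2, HTSeq and DESeq2 were used with the build mm10. The sources used here do not state their versions or settings.

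The 10 genes and the pathway and marker lists were chosen with earlier results of these data known. All genes and groups of a table entered 1 fit by edgeR 4.0.16, run under R 4.3.3 (filterByExpr, TMM scaling, robust glmQLFit, glmQLFTest, 1 coefficient per group), two-sided, with Benjamini-Hochberg adjustment over all 15888 or 15525 genes tested. This gave 8 comparisons. CPM were computed with the TMM-scaled library sizes, intervals are 95%, and SEs were derived from the log2 fold change and the F statistic. Ratios of trace counts were given from summed counts with exact 95% intervals, for counting error only. The smallest chi-square per degree of freedom between replicates was 4.54, so no library pair agreed within sampling noise.

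The alternatives were DESeq2 size factors, no count filter, DESeq2 1.42.0, only the libraries compared, the replicate number as a block, limma 3.58.1 on log2(FPKM + 1), and each library left out in turn. Named pathway genes are up to 2 higher and 2 lower per list and comparison with the smallest p, and the genes most like Lgr5, Axin2 and Rspo3 are the 3 with the highest correlation. Coordinates and promoter windows come from RefSeq (GRCm38.p6), exon overlaps from GENCODE vM21.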

Additional observations from a re-analysis of the deposited data

Results flagged for a closer look

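In the inner ear, Rspo3 in 11-month replicate 4 stood at 43.0 CPM, where the other 3 mice of that age had 22.6 to 23.9 CPM. Rspo3 in 3-month replicate 2 stood at 58.8 CPM, where the other 3 mice had 38.3 to 41.3 CPM. In both cases the gap to the nearest mouse, as a share of the group's range, exceeded the 95% critical value of Dixon's test for 4 values. These were 2 of 30 gene and age groups tested, and chance exceeds that value in about 1 in 20.

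In the organoids, the TNF effect differed with the knockdown for 16 higher and 8 lower of 88 pathway genes tested, beside 12.3% of all genes. Among them were 16 named genes (edgeR interaction, adjusted p between 2.61e-06 for Fzd5 and 0.0495 for Dvl3). The TNF effect with minus that without the knockdown, on the log2 scale, was 1.16 for Fzd5, 0.63 for Lrp5, -0.44 for Fzd3 and -0.28 for Fzd2 among receptor genes, and 0.36 for the ligand gene Wnt7b. It was 0.84 for Dkk3, -0.62 for Frzb and 0.46 for Kremen1 among inhibitor genes. It was 0.27 for Dvl3, -0.28 for Tnks and -0.28 for Apc in the destruction complex list, and 0.31 for Pygo2 and 0.40 for Tcf7 among TCF factors and co-factors. Of the target genes, Sp5 had 1.29, Jun 0.42 and Smoc2 -0.37.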

How the results depend on the processing

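Over 1065 single-gene alternatives for the 10 genes, 526 that left out 1 library and 431 others kept direction and side of the threshold. Those that lost or gained a call stand beside the results above, and their causes were not tested. Of the 10 genes, only the libraries compared gave 4 calls instead of 5 for knockdown over control, where Rspo3 was no longer tested, and 5 instead of 7 for knockdown with TNF over TNF, where Rspo3 was not tested and Lgr6 was lost. The interaction gave 2 calls with limma instead of 0, 20 over 3 months gave 4 with DESeq2 and 1 with the replicate block instead of 2, and 11 over 3 months gave 1 with DESeq2 instead of 0. Over all genes, 11 over 3 months gave 242 calls, against 1028 with DESeq2, 797 with only the libraries compared, 130 with the replicate block and 112 with limma. The replicate numbers share no source in the labels. Same-numbered libraries correlated between -0.12 and 0.29 (2 of 18 over 0.1; best with their own number in 8 of 36 cases) in organoids and between -0.34 and 0.37 (4 of 12; 7 of 24) in the inner ear. The block took the Znrf3 call at 20 over 3 months (adjusted p = 0.0534) and changed no other call of the 10 genes.

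Leaving out 1 library gave 38 to 137 calls over all genes at 11 over 3 months, 787 to 3632 at 20 over 11, 2211 to 3951 at 20 over 3 and 1221 to 2337 for the interaction. Of the 10 genes it gave 0 to 1 calls at 11 over 3 months, 1 to 3 at 20 over 11, 1 to 3 at 20 over 3 and 0 to 1 for the interaction. The share of calls that were higher was 56.8% with limma instead of 46.3% for knockdown over control, and 47.8% with no count filter instead of 61.1% for the interaction. No alternative moved the median of all genes by more than 0.05.

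In settings that kept all libraries, or all those compared, the signs that turned belonged to log2 differences near 0 that passed no test. For TNF over control, Lgr5 was 0.02 with no count filter and with only the libraries compared, 0.03 with the replicate block and 0.00016 with limma, and Lgr6 was 0.02 with no count filter, 0.0097 with only the libraries compared and 0.02 with limma. For knockdown over control, Lgr6 was 0.0074 with DESeq2 size factors, 0.02 with no count filter, 0.006 with DESeq2, 0.0043 with only the libraries compared and 0.04 with limma. Myc at 20 over 3 months was -0.00044 with DESeq2 size factors, -0.0024 with no count filter and -0.00097 with DESeq2, and at 11 over 3 months -0.0056 with the block. Myc at 20 over 11 months was -0.0054 with DESeq2 size factors, -0.0087 with no count filter, -0.0057 with DESeq2 and -0.01 with only the libraries compared.

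Leaving out 1 library turned these signs within the ranges given. In organoids Lef1 spanned -0.21 to 0.08 for the interaction and -0.05 to 0.19 for knockdown with TNF over TNF. Rspo1 spanned -2.95 to 1.20 and Rspo3 -0.65 to 1.77 for the interaction, which rests on trace counts, and the Rspo1 value of -2.95 was fitted against control libraries at 0 counts. For TNF over control Lgr5 spanned -0.23 to 0.17, Lgr6 -0.03 to 0.09 and Znrf3 -0.10 to 0.02. In the inner ear Lef1 spanned -0.02 to 0.28 at 11 over 3 months, and Rspo3 -0.04 to 0.32 at 20 over 11 months. Myc spanned -0.11 to 0.11 at 11 over 3 and at 20 over 11 months and -0.11 to 0.09 at 20 over 3 months. Rspo1 spanned -0.16 to 0.08 at 11 over 3 months, -0.02 to 0.19 at 20 over 11 and -0.05 to 0.13 at 20 over 3.

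Depth limits Rspo1 without TNF and Rspo3 in organoids, at 0 to 15 counts per library. No fold is given where both groups summed to 3 counts or fewer, and ratios over 1 to 4 counts are given with their counting intervals. With 3 organoid libraries or 4 mice per group, intervals such as that of Lgr5 for TNF over control are wide, and bulk tissue does not show which cells carried a transcript.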
